A study of Mus musculus with 26 samples.

Results

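The genes followed here belong to the response to low oxygen and of sugar breakdown, and were chosen by name: Egln3, Ndrg1, Vegfa, Adm, Slc2a1, Hk2, Pgk1, Ldha, Pdk1 and Bnip3, measured in HCmel3 mouse melanomas. The rule took every probe that the array's annotation gives to these 10 genes, in both deposited tables and in every tumour. It found 17 of 45260 probes, for 9 of the 10 genes, out of 19051 genes with a probe of 1 symbol. The annotation gives no such probe to Hk2, a hexokinase that starts glycolysis, and it was not analysed here. Testing required detection in 5 or more tumours of some group, and 12 of the 17 probes, for 8 of the 9 genes, met this. The single probe of Bnip3, a mitochondrial protein that promotes the removal of mitochondria, failed this filter: it was detected on 0 of 8 EDT and 0 of 8 NT arrays, and on 1 of 5 relapse and 0 of 5 ctrl arrays. The probes that failed lay near background in nearly all tumours and say nothing of the genes' transcripts beyond that.

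HCmel3 is a melanoma grown in C57BL6 mice, and RNA of excised, frozen tumours was hybridised to Illumina bead arrays (MouseWG-6 v2.0), with 1 array per tumour and 26 in all. The first table holds 8 EDT tumours, taken early during adoptive T cell transfer, and 8 untreated NT tumours. The second holds 5 relapse tumours, which had regrown after the transfer, and 5 untreated ctrl tumours. Both treated groups received cyclophosphamide, CD8+ pmel-1 T cells carrying a transgenic receptor for the melanocyte antigen gp100, an adenovirus vaccine that expresses gp100, and CpG with polyI:C, so the parts of the treatment cannot be told apart. EDT tumours were taken between day 12 and day 20, with no day given for any one tumour, and no day is given for relapse or for either untreated group. The titles of the second table speak of a repeated analysis without saying what was repeated. The labels are silent on whether each tumour had its own mouse, so a p-value below reflects only how far these samples scatter, and that scatter may be technical.

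In cells with enough oxygen, prolyl hydroxylases mark the alpha subunits of the hypoxia-inducible factors (HIF) for destruction through the von Hippel-Lindau protein. When oxygen falls the alpha subunits persist, pair with ARNT and bind short core sequences near genes for glucose uptake, glycolysis, vessel growth and the hydroxylases themselves. Many tumours also run glycolysis when oxygen is present, and several of these genes respond to inflammatory signals and growth signals as well, so that the same transcripts are read in settings other than low oxygen.

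The core that HIF binds was searched in the genes' promoters, because it is what these genes are commonly grouped by. RefSeq (GRCm38.p6) gave 12 promoters for 9 of the 10 genes, each 300 bases long, with 250 bases before the start of transcription and 50 after it. Ndrg1 is not among them. The letters ACGTG and GCGTG were searched on both strands, and ACGTG overlaps itself where it stands inside CACGTG. At least 1 of the 2 cores stood in 10 of the 12 promoters, against 43.8% of all 32851 promoters of the same length. ACGTG stood in 7 of the 12, against 19.6% of all promoters, and GCGTG in 7 of the 12, against 32.4%. One window is shown for each of 5 tested genes. They set the gene that rose, Egln3, beside glucose and vessel genes whose brightest probe passed the test neither in EDT nor at relapse. The core or its reverse complement is in capitals, and each sequence reads 5′ to 3′ along the gene.
Egln3 (chr12:54204087-54204115, minus strand): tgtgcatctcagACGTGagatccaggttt
Slc2a1 (chr4:119108697-119108725, plus strand): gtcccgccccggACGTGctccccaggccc
Pgk1 (chrX:106186938-106186966, plus strand): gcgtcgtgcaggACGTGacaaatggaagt
Pdk1 (chr2:71873134-71873162, plus strand): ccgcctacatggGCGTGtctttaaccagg
Adm (chr7:110627591-110627619, plus strand): ggcaaatctgacCACGCccaccgtccgcc
The Egln3 promoter held 1 core, the Slc2a1, Pgk1 and Adm promoters held 2 each, the Ldha promoters held 7 and 2 (CACGTG counts on both strands), and 1 of the 2 promoters each of Pdk1 and Vegfa held 2 and the other 0. A match describes the letters only, and no binding was measured here.

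Between 14064 and 18323 of the probes were detected on an array. NT 1, NT 2 and NT 3, on array slide 1, had 14064 to 14631 detected, against 14640 to 16312 for the other NT tumours. The 95th percentile of their raw signals was 823 to 1119, against 1541 to 1938 for the other NT tumours. The part of this in the results below was not tested. The number of arrays limits the precision. In the second table a tested gene's probe was read on 20 to 60 beads, with a standard error of 3.08% to 8.21% of its signal. Melanocyte markers were present in every group, with 10 of 10 measured genes tested. Their summed signal ran from 78576 to 160284 in EDT and from 144212 to 169645 in NT, and from 15003 to 114239 in relapse and from 171739 to 185053 in ctrl. All 10 were lower in relapse and 2 in EDT. Macrophage and monocyte markers were higher for 12 of 13 genes in each comparison, with sums of 26380 to 52162 in EDT and 5938 to 16859 in NT, and of 16759 to 69427 in relapse and 4231 to 12113 in ctrl. Neutrophil markers were higher for 6 of 9 genes in EDT and for 4 of 9 in relapse. T cell markers were higher for 7 of 7 genes in EDT and for 5 of 7 in relapse, and fibroblast markers for 4 of 9 in EDT. Endothelial markers were lower for 4 of 10 genes in EDT and for 1 of 10 in relapse. Keratinocyte markers varied widely between tumours of a group, with sums from 116 to 36007 in EDT and 91.9 to 20403 in NT, and from 106 to 41645 in relapse and 139 to 4682 in ctrl. These marker levels moved with the groups, their part in the results below was not tested, and in bulk tumour RNA fewer cells of a type and less RNA per cell cannot be told apart.

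One tumour stood apart. Relapse 3 had the highest melanocyte sum of its group, 114239, and the lowest macrophage sum, 16759, and it was also the highest relapse tumour for Ndrg1, Vegfa, Slc2a1, Ldha, Pgk1, Pdk1 and Adm. In melanocyte markers it did not stand alone. On the log2 scale their sum was 16.80 in relapse 3 and 16.35 in relapse 1, against 13.87 to 14.18 in relapse 2, 4 and 5. Ndrg1 was 9.74 log2 units in relapse 1, beside 11.45 in relapse 3. The red cell marker sum of relapse 3 was 16.40 on the log2 scale, against 11.62 to 15.42 in the other 4 relapse tumours, beside 14.54 to 16.64 in ctrl. Without this tumour 4 of 5 red cell markers were lower in relapse, with a median change of -2.32, beside -1.46 with it. For the tested genes and the wider lists, values without relapse 3 are given where a call changes. It was picked out partly by the tested genes, so those values are a description.

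The genes did not move as a block. Egln3 rose and Ndrg1 fell both early in treatment and at relapse, although the early Egln3 call ended with array slide as a fixed block (0.75, adjusted p = 0.443 in limma). Here and below, that block takes the EDT change from slide 5 alone, the only slide with both EDT and NT tumours. Vegfa fell at relapse, and the glucose genes Slc2a1, Ldha, Pgk1 and Pdk1 passed the test in neither comparison by their brightest probe. Early in treatment 2 of 8 tested genes were called at an adjusted p under 0.05 in limma, 1 higher and 1 lower, against 28.7% of all 9553 genes (14.1% higher and 14.6% lower). At relapse 3 of 8 were called, 1 higher and 2 lower, against 30.8% of all genes (13.3% higher and 17.5% lower). Both shares lie near the background. Their median change was -0.06 in EDT and -0.66 at relapse on the log2 scale, beside -0.05 and -0.07 over all genes.

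**Figure D1:**
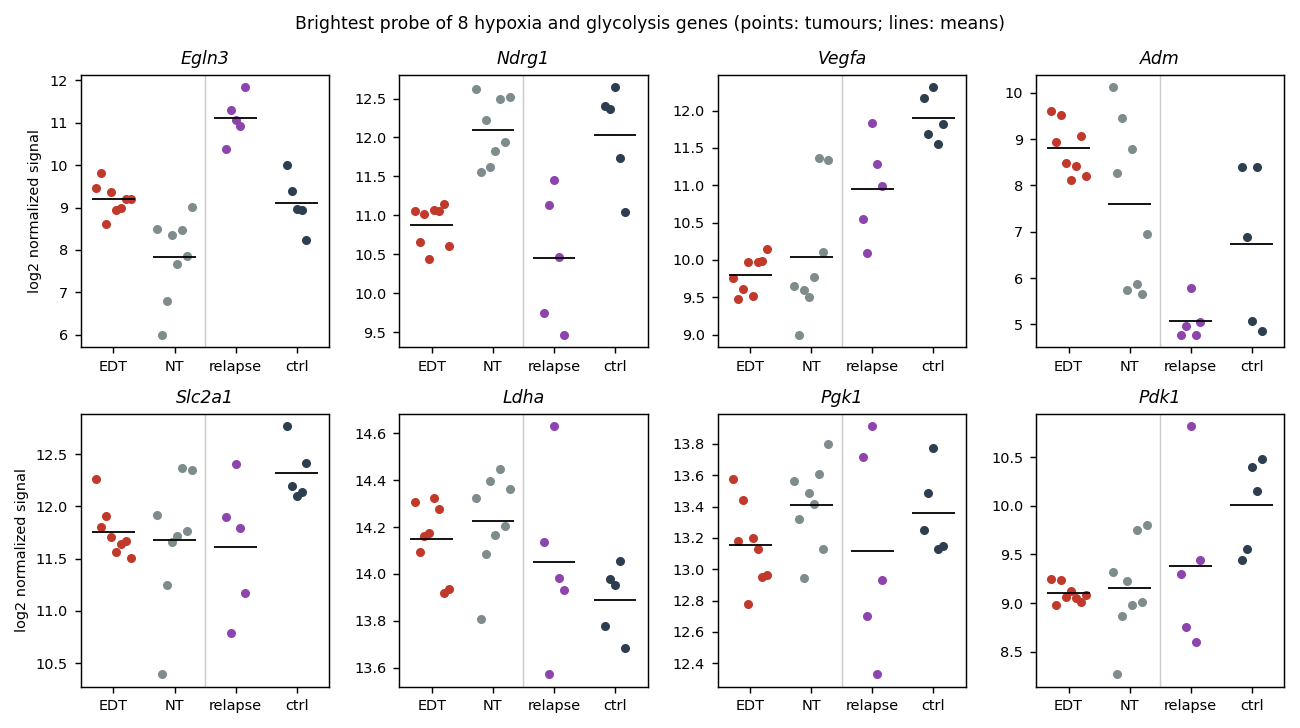
Log2 normalized signal of the brightest probe of 8 genes in each tumour, with EDT left of NT (8 tumours each) and relapse left of ctrl (5 each), on a separate vertical axis for each gene; points are tumours and bars are group means. All 8 EDT tumours lie below all 8 NT tumours for Ndrg1, and all 5 relapse tumours lie above all 5 ctrl tumours for Egln3; levels are not comparable between genes.

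Egln3 encodes PHD3, one of the prolyl hydroxylases that mark HIF alpha subunits, and is itself induced by HIF. Its brightest probe, ILMN_2605819, ran from 8.61 through a median of 9.20 to 9.81 log2 units in EDT tumours, against 5.99 through 8.10 to 9.02 in NT tumours. In all, 5 of the 8 EDT tumours lay above every NT tumour, all 8 lay above the NT mean, and the groups overlapped. The change was 1.37 ± 0.34 (SE), or 2.58-fold higher in EDT, with an adjusted p of 0.00636 in limma. With array slide as a fixed block it was 0.75 with an adjusted p of 0.443. Part of its size lies with NT 2 and NT 3, the lowest tumours at 5.99 and 6.79, both on the first array slide; without each NT or EDT tumour in turn the change stayed between 1.10 and 1.54.

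Egln3 rose at relapse as well. The 5 relapse tumours had 10.37, 11.31, 11.07, 10.93 and 11.85 log2 units, against 10.01, 9.39, 8.96, 8.94 and 8.23 in the 5 ctrl tumours. The groups did not overlap, which held for 1 of the 8 tested genes by their brightest probe and for 18.1% of all genes (7.43% with relapse above ctrl and 10.7% with it below). The change was 2.0 ± 0.34 (SE), a 4.0-fold rise, with an adjusted p of 0.00196 in limma. It was 2.01 without relapse 3, so this result does not rest on the tumour that stood apart.

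The dimmer Egln3 probe, ILMN_2782101, was detected on 5 of 5 relapse arrays and on 0 of 5 ctrl, 0 of 8 EDT and 0 of 8 NT arrays. It therefore passed the detection filter only through the group where it is bright, and its values are given as a description with no test. At relapse its group means were 5.44 ± 0.22 in relapse and 4.56 ± 0.25 in ctrl (SD, n = 5 each), and the signal was at least 1.08-fold higher in relapse when ctrl is set at the dimmest signal that counts as detected. Its EDT minus NT difference was 0.28, with both groups not well above background, and no fold is given. The remaining Egln3 probe was detected on 0 arrays of any group.

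Ndrg1 encodes a stress-responsive cytoplasmic protein linked to differentiation and to restraint of spread in several tumours, and it is widely used as a marker of low oxygen. It went the other way from Egln3 in both comparisons. The probe ILMN_1250195 ran from 10.43 through 11.04 to 11.14 log2 units in EDT tumours, against 11.56 through 12.08 to 12.63 in NT tumours. The groups did not overlap, which was so for 1 of the 8 tested genes by their brightest probe and for 6.07% of all genes (4.58% with EDT above NT and 1.49% with it below). EDT tumours were 2.33-fold lower, a change of -1.22 ± 0.17 (SE) with an adjusted p of 6.06e-05 in limma.

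At relapse the same probe gave 9.74, 11.14, 11.45, 10.46 and 9.46 log2 units in relapse tumours, against 12.40, 12.36, 12.65, 11.74 and 11.04 in ctrl tumours. All 5 relapse tumours lay below the ctrl mean and 3 of 5 below every ctrl tumour, with ctrl 5 reaching into the relapse range. The change was -1.59 ± 0.42 (SE), 3.01-fold lower, with an adjusted p of 0.0147 in limma. The second Ndrg1 probe, ILMN_2646166, gave a change of -0.97 ± 0.21 in EDT and of -1.57 ± 0.41 at relapse, with adjusted p of 0.00283 and 0.0138, so both probes moved the same way by similar amounts. By this probe the EDT and NT groups overlapped, with 5 of 8 EDT tumours below every NT tumour. The EDT change of the brighter probe did not differ from its relapse change by more than the error (0.37 ± 0.42, adjusted p = 0.575), with a 95% interval of the difference from -0.49 to 1.22. For Egln3 the same comparison gave -0.63 ± 0.53, with an adjusted p of 0.43 and an interval from -1.72 to 0.46.

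**Figure D2:**
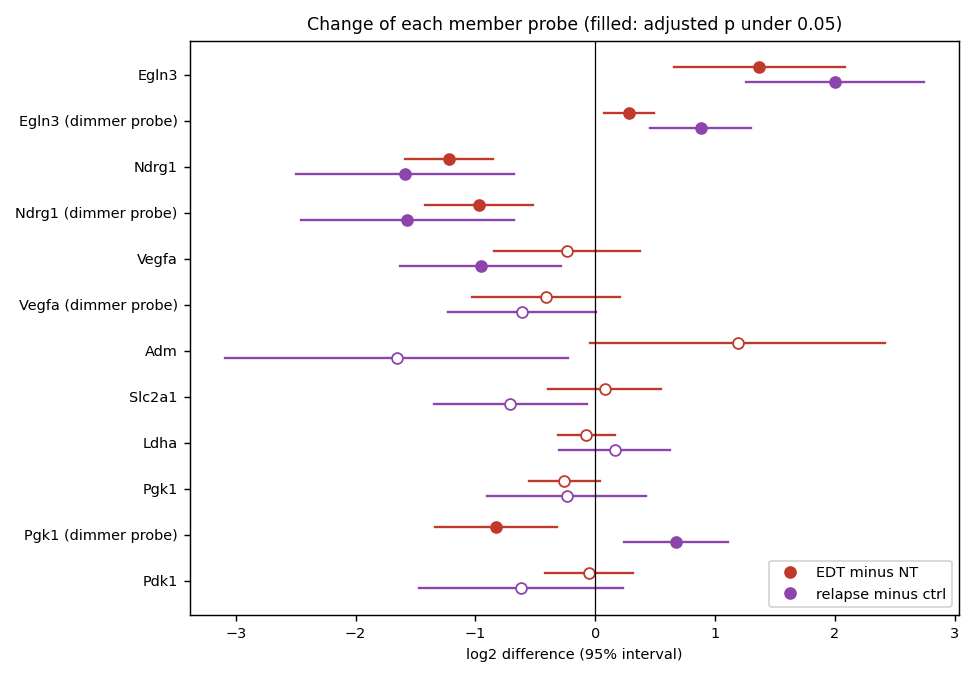
Log2 difference of each tested probe, EDT minus NT (upper point) and relapse minus ctrl (lower point), with 95% intervals from limma; filled points have an adjusted p under 0.05, and the dimmer Egln3 probe entered through the relapse group alone. In both comparisons the brighter Egln3 probe lies right of 0 and both Ndrg1 probes left of 0. The dimmer Pgk1 probe lies left of 0 in EDT and right of 0 at relapse. The points and intervals of the dimmer Egln3 probe are a description and no test, because it was detected on no EDT, NT or ctrl array.

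Vegfa encodes the main growth factor for vessel endothelium. Its brightest probe, ILMN_2484527, ran from 9.47 through 9.86 to 10.15 log2 units in EDT tumours, against 8.99 through 9.71 to 11.36 in NT tumours. The EDT tumours lay close together inside the NT range, which NT 6 and NT 8 widened at 11.36 and 11.34. The difference of -0.24 ± 0.29 (SE) had an adjusted p of 0.581 in limma. At relapse the values were 10.55, 10.09, 11.83, 11.28 and 10.99 in relapse tumours, against 12.16, 11.68, 12.32, 11.56 and 11.81 in ctrl tumours. All but relapse 3 lay below every ctrl tumour, and relapse 3 lay within the ctrl range. The change was -0.96 ± 0.31 (SE), 1.94-fold lower, with an adjusted p of 0.0342 in limma.

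The Vegfa call at relapse was fragile. It was lost without ctrl 1, ctrl 3, ctrl 5, relapse 1, relapse 2 or relapse 5, with changes between -0.98 and -0.74 and adjusted p between 0.0541 and 0.0808, while without relapse 3 the change was -1.18 with an adjusted p of 0.00535. The dimmer detected probe, ILMN_3121255, gave -0.61 ± 0.28 with an adjusted p of 0.117, and -0.41 ± 0.29 in EDT with an adjusted p of 0.32. The remaining Vegfa probe was detected on 0 arrays.

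Adm encodes adrenomedullin, a peptide that widens vessels and is made by tumour cells and by macrophages. Its probe ILMN_1247207 ran from 8.12 through 8.71 to 9.60 log2 units in EDT tumours, against 5.65 through 7.61 to 10.12 in NT tumours. The EDT tumours sat in a narrow band, and the NT tumours fell into a high set (NT 1, 2, 3 and 5, at 8.28 to 10.12) and a low set (NT 4, 6, 7 and 8, at 5.65 to 6.95). All 3 NT tumours of array slide 1 were in the high set (mean 9.29), and all 3 of slide 5 in the low set (mean 6.16). The EDT means were 9.36, 8.34 and 8.64 on slides 2, 3 and 5. The difference of 1.19 ± 0.59 (SE) had an adjusted p of 0.142 in limma. At relapse the values were 4.78, 4.97, 5.78, 4.77 and 5.05 in relapse tumours, against 8.39, 6.90, 5.08, 8.40 and 4.86 in ctrl tumours, with the probe detected on 1 of 5 relapse arrays and 3 of 5 ctrl arrays. The difference of -1.66 ± 0.66 had an adjusted p of 0.0734, and it was past the threshold without ctrl 3 (-2.07, adjusted p = 0.0366) or ctrl 5 (-2.12, adjusted p = 0.0253).

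By the brightest probes, Adm was the 1 gene whose early and relapse changes differed. The EDT change minus the relapse change was 2.85 ± 0.96 (SE) with an adjusted p of 0.0408 in limma, the 1 call among the 8 tested genes, against 17.1% of all genes (10.1% in this direction and 6.97% in the other). Neither change passed the test by itself, and the call on their difference was lost in 16 of the 36 other settings, among them the leaving out of any 1 of 14 tumours. For the other 7 genes the difference did not pass the test. The widest of these was Slc2a1, at 0.79 ± 0.38 with an adjusted p of 0.144, and it passed without relapse 3 (0.99, adjusted p = 0.0479), as Pdk1 did (0.92, adjusted p = 0.0352).

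**Figure D3:**
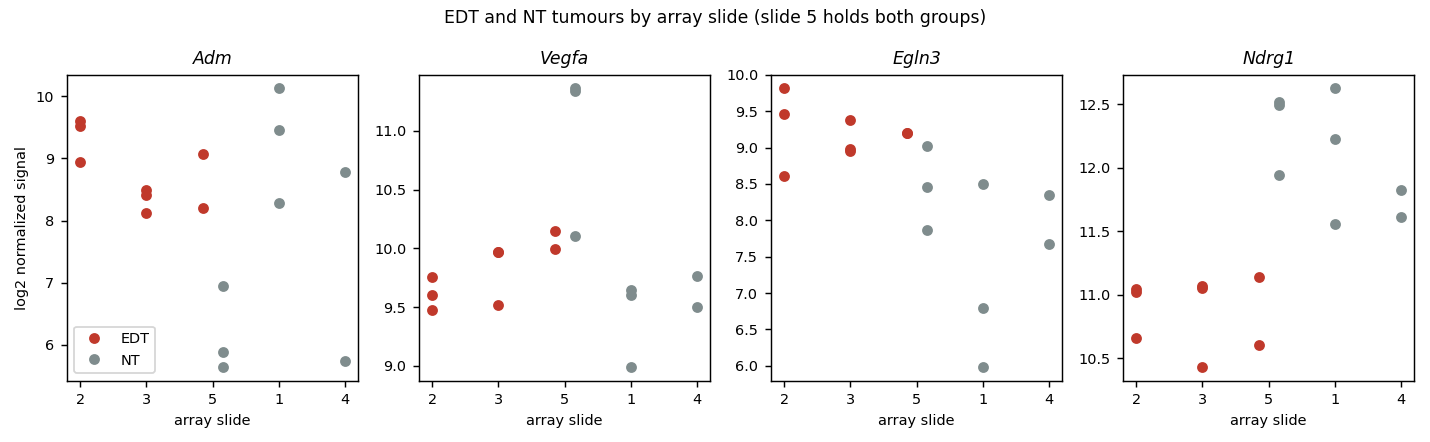
Log2 normalized signal of Adm, Vegfa, Egln3 and Ndrg1 in EDT and NT tumours by array slide, ordered as the slides with EDT tumours (2 and 3), slide 5 with both groups, and the slides with NT tumours (1 and 4). On slide 5 the 2 EDT tumours lie above the 3 NT tumours for Adm and below them for Ndrg1.

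The EDT and NT tumours lay on 5 array slides, and slide 5 alone held both groups, so slide and group cannot be told apart on the other 4. Within slide 5, which holds 2 EDT and 3 NT tumours, Adm was higher in EDT by 2.48 with an adjusted p of 0.0293, at 8.21 to 9.07 in EDT and 5.65 to 6.95 in NT. On the same slide Ndrg1 changed by -1.44 with an adjusted p of 0.0502, about the size over all slides. The Egln3 difference there was 0.75 with an adjusted p of 0.331, at 9.20 in both EDT tumours and 7.86 to 9.02 in NT tumours. Slide as a fixed block gave the same EDT changes as slide 5, because only there are the groups compared. The tumours of the other 4 slides enter its error alone, so it is no separate check over all slides. In that setting in limma the Egln3 call ended, as given above, that of Ndrg1 held (-1.44, adjusted p = 0.0113) and Adm passed (2.48, adjusted p = 0.0426). Vegfa in NT was highest on slide 5, at 10.10 to 11.36, against 8.99 to 9.65 on slide 1 and 9.5 to 9.76 on slide 4.

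Relapse and ctrl tumours shared both of their slides. Egln3 changed by 1.46 within slide 6 and by 2.80 within slide 7, and Ndrg1 by -1.70 and -1.43. Vegfa changed by -1.23 and -0.55. Of these only Egln3 on slide 7 passed the test within a slide (adjusted p = 0.00974 in limma), where 3 relapse tumours stood against 3 ctrl tumours or 2 against 2, and with slide as a fixed block the calls of Egln3, Ndrg1 and Vegfa all held.

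Glucose enters through GLUT1, the product of Slc2a1, and neither comparison changed it past the threshold. The probe ILMN_1258159 ran from 11.51 through 11.69 to 12.27 log2 units in EDT tumours, against 10.39 through 11.74 to 12.37 in NT tumours, a difference of 0.08 ± 0.23 with a 95% interval from -0.39 to 0.55. At relapse it gave 11.90, 10.78, 12.41, 11.80 and 11.17 in relapse tumours, against 12.77, 12.20, 12.10, 12.14 and 12.41 in ctrl tumours. All but relapse 3 lay below every ctrl tumour. The difference of -0.71 ± 0.29 had an adjusted p of 0.0836 in limma, and without relapse 3 it was -0.91 with an adjusted p of 0.0171.

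Pgk1 encodes phosphoglycerate kinase, which makes ATP in the lower part of glycolysis, and Ldha the lactate dehydrogenase subunit that turns pyruvate into lactate. By its brightest probe, ILMN_2651886, Pgk1 ran from 12.78 through 13.15 to 13.58 log2 units in EDT tumours, against 12.94 through 13.45 to 13.80 in NT tumours, a difference of -0.26 ± 0.14 with an adjusted p of 0.189. At relapse it gave 13.71, 12.70, 13.91, 12.33 and 12.93 in relapse tumours, against 13.25, 13.49, 13.78, 13.13 and 13.15 in ctrl tumours, a difference of -0.24 ± 0.30 with an adjusted p of 0.574. The relapse tumours lay on both sides of the ctrl range.

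The dimmer Pgk1 probe, ILMN_2797973, disagreed with the brighter one and with itself between the comparisons. It changed by -0.83 ± 0.24 in EDT with an adjusted p of 0.0165, detected on 7 of 8 EDT and 8 of 8 NT arrays. At relapse it changed by 0.67 ± 0.20 with an adjusted p of 0.0247, at means of 5.29 in relapse and 4.62 in ctrl, detected on 5 of 5 relapse and 0 of 5 ctrl arrays; no fold is given, because the ctrl bound lies above the relapse mean. The EDT call of the dimmer probe was lost under median centring (-0.48, adjusted p = 0.112 in limma) and with slide as a fixed block (-0.96, adjusted p = 0.0794). Its relapse call was lost without background correction (0.18, adjusted p = 0.110). Both calls held with the authors' processed values. The third Pgk1 probe was detected on 2 of 5 relapse and 1 of 5 ctrl arrays and was not tested.

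Ldha ranged over 0.40 log2 units in EDT, 0.64 in NT and 0.38 in ctrl tumours, and over 1.06 in relapse tumours. Its probe ILMN_1257965 ran from 13.92 through 14.17 to 14.32 log2 units in EDT tumours, against 13.81 through 14.26 to 14.45 in NT tumours, and the difference of -0.07 ± 0.11 had a 95% interval from -0.31 to 0.16. The relapse tumours had 14.13, 13.57, 14.63, 13.98 and 13.93, against 13.78, 13.98, 13.95, 14.06 and 13.68 in ctrl tumours. The difference of 0.16 ± 0.21 had an interval from -0.30 to 0.62, so a change of over 1 log2 unit either way lies outside both intervals.

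Pdk1 encodes a kinase that switches off pyruvate dehydrogenase and so holds pyruvate back from the mitochondria. Its probe ILMN_1229318 ran from 8.98 through 9.07 to 9.25 log2 units in EDT tumours, against 8.27 through 9.12 to 9.80 in NT tumours. The EDT tumours lay within 0.27 log2 units of each other, and the difference was -0.05 ± 0.18 with a 95% interval from -0.42 to 0.32. At relapse the values were 9.30, 8.76, 10.82, 8.60 and 9.45 in relapse tumours, against 9.44, 9.55, 10.40, 10.15 and 10.48 in ctrl tumours. Relapse 3 lay above every ctrl tumour and 3 of the other 4 below every one. The difference of -0.62 ± 0.39 had an adjusted p of 0.244 in limma, and without relapse 3 it was -0.98 with an adjusted p of 0.0174. The second Pdk1 probe was detected on 1 of 8 EDT and 1 of 8 NT arrays and on 0 arrays of the second table.

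Without relapse 3, then, 5 of the 8 genes were called at relapse, with Egln3 higher and Ndrg1, Vegfa, Slc2a1 and Pdk1 lower. More of all genes were called without it too, 1728 higher and 2178 lower of 9553, against 1270 and 1676 with it. Relapse 3 was the highest relapse tumour for Ndrg1, Vegfa, Slc2a1 and Pdk1, so their lower values without it follow in part from its choice.

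Some of the tested genes varied together in untreated tumours. Over the 8 NT tumours 7 of 28 pairs of genes correlated past the threshold, and over the 8 EDT tumours 1 of 28, by a two-sided exact permutation test of Pearson's r adjusted over all 56 pairs. In NT these were the 6 pairs among Egln3, Slc2a1, Ldha and Pdk1, and the pair Vegfa and Pdk1. Slc2a1 and Pdk1 had the closest relation, with r = 0.96 (adjusted exact p = 0.00856) and rho = 0.90 (adjusted exact p = 0.0639). Egln3 and Pdk1 had r = 0.93 (adjusted exact p = 0.00856) and rho = 0.98 (adjusted exact p = 0.0222), the 1 pair of the 56 that passed by rank too. Egln3 and Ldha had r = 0.94, Egln3 and Slc2a1 r = 0.94, Ldha and Pdk1 r = 0.93, Slc2a1 and Ldha r = 0.92, and Vegfa and Pdk1 r = 0.87 (adjusted exact p = 0.0278 for the last and at most 0.0177 for the others).

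NT 2 weighed heavily in these relations, since it was the lowest NT tumour for Egln3, Slc2a1, Ldha, Pdk1 and Vegfa. Without it 0 of the 28 NT pairs passed, although the 6 pairs among Egln3, Slc2a1, Ldha and Pdk1 kept r of 0.78 to 0.94. With the 2 tumours farthest from the median left out, Slc2a1 and Pdk1 kept r = 0.91 (exact permutation p = 0.0111), and Egln3 and Pdk1 kept r = 0.88 (exact permutation p = 0.0306). Ldha and Pdk1 had r = 0.78 in the same way (exact permutation p = 0.0431). The other 4 pairs had exact permutation p above the threshold: Egln3 and Slc2a1 (r = 0.73, p = 0.101), Egln3 and Ldha (r = 0.76, p = 0.0792), Slc2a1 and Ldha (r = 0.68, p = 0.124), and Vegfa and Pdk1 (r = 0.65, p = 0.178). For Vegfa and Pdk1 the tumours left out were NT 6 and NT 8. All 4 r were lower than over all NT tumours. With so few tumours kept, these p cannot tell whether the relations rest on those left out. Each slide holds at most 3 tumours of a group, too few for a value within a slide. The NT means of Egln3, Slc2a1, Ldha, Pdk1 and Vegfa were each lowest on slide 1 and highest on slide 5, with slide 4 between. For Egln3 they were 7.09, 8.01 and 8.45 on slides 1, 4 and 5, and for Pdk1 8.82, 9.10 and 9.52. The part of slide in these relations was not tested. In EDT the passing pair was Slc2a1 and Adm, with r = 0.87 (adjusted exact p = 0.00856) and rho = 0.90 (adjusted exact p = 0.0639). With its 2 farthest tumours left out r was 0.77 with an exact permutation p of 0.0708, which again cannot tell whether the relation rests on them. Whether the relations differ between EDT and NT was not tested, and the 5 tumours of each group of the second table are too few.

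**Figure D4:**
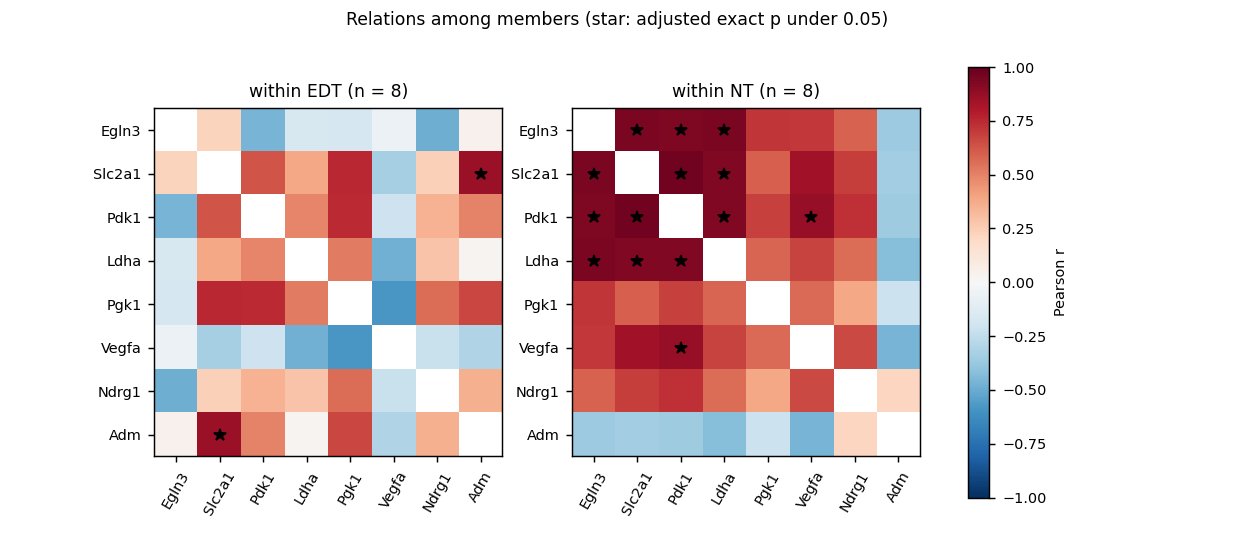
Pearson's r between the brightest probes of 8 genes over the 8 EDT tumours (left) and the 8 NT tumours (right), on a colour scale from -1 to 1; stars mark an adjusted exact p under 0.05. In NT 7 pairs are starred, 6 of them among Egln3, Slc2a1, Ldha and Pdk1, and 1 pair in EDT.

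The genes whose signal followed Egln3 and Ndrg1 most closely were sought over all 26 tumours, among 14470 probes, after each tumour's value had its group mean taken away. For Egln3 the highest r were those of Mmp10 (0.75), Porcn (0.70) and Castor1 (0.70), and the lowest those of Nsun5 (-0.76), Serbp1 (-0.72) and Mcm2 (-0.68). For Ndrg1 they were those of Anxa4 (0.78), Rora (0.73) and Selenbp2 (0.72), and of Kif18b (-0.78), Cse1l (-0.74) and Plk1 (-0.74). Kif18b, Cse1l, Plk1 and Mcm2 take part in cell division, Mmp10 is a secreted matrix protease, and Rora a nuclear receptor that is itself on the list of hypoxia-induced genes below. These r describe the tumours and carry no test.

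Few regulators above these genes passed the test. Of 12 genes of the HIF pathway 9 were tested, and 1 was higher and 0 lower in each comparison, against 14.1% higher and 14.6% lower of all genes in EDT, and 13.3% and 17.5% at relapse. Without relapse 3 the relapse count was 1 higher and 2 lower, the lower ones being Vhl (-1.34, adjusted p = 0.00489) and the hydroxylase gene Egln2 (-0.65, adjusted p = 0.0268), which is named after its values were seen. Hif1a, the HIF-1 alpha subunit, was higher in EDT, at a mean of 9.82 ± 0.38 in EDT and 9.23 ± 0.49 in NT (SD, n = 8 each), a change of 0.59 with an adjusted p of 0.0418 in limma, and the change was 0.69 with an adjusted p of 0.202 with slide as a fixed block. At relapse its difference was 0.54 with an adjusted p of 0.171. Cited2, which competes with HIF for its coactivator, was higher at relapse by 0.99 with an adjusted p of 0.00745. Vhl gave -0.40 in EDT and -1.0 at relapse, and Egln1, which encodes the main oxygen-sensing hydroxylase PHD2, -0.43 and -0.48, with adjusted p between 0.0691 and 0.204. Epas1, which encodes HIF-2 alpha, had no probe that passed the detection filter.

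Other enzymes of glycolysis leaned downward in both comparisons. In EDT 2 of 17 tested were higher and 5 lower, against 14.1% higher and 14.6% lower of all genes. The median change was -0.35 beside -0.05 over all genes. The highest was Hk3, a hexokinase strongly expressed in myeloid cells, at 9.97 ± 0.52 in EDT and 7.75 ± 0.94 in NT (SD, n = 8 each), a change of 2.22 with an adjusted p of 0.000131 in limma. It moved in the direction of the macrophage and neutrophil markers, whose part in it was not tested. Pfkfb4, which sets the level of the allosteric activator of phosphofructokinase, was higher by 0.50. The lowest were the aldolase Aldoc (-1.16), the phosphofructokinase Pfkm (-0.80) and the enolase Eno2 (-0.70). With slide as a fixed block the list had 1 higher and 3 lower, where 589 of all 9553 genes were higher and 391 lower. The calls of Pfkfb4 (0.36, adjusted p = 0.520) and Eno2 (-0.44, adjusted p = 0.492) ended, and those of Hk3, Aldoc and Pfkm held.

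At relapse 1 of the 17 was higher, Pfkfb4 by 1.29 with an adjusted p of 0.0121, and 6 were lower, with a median of -0.36 beside -0.07 over all genes. Of all genes 13.3% were called higher and 17.5% lower there. The lowest were Pfkl, the liver-type phosphofructokinase (-1.93), Eno2 (-1.93) and Pfkfb2 (-1.56), with adjusted p of 0.00498, 0.00598 and 0.00204 in limma. Without relapse 3 the count was 1 higher and 7 lower, with Aldoc now called (-1.33, adjusted p = 0.0254). Gapdh, which catalyses the step before Pgk1, gave -0.14 in EDT and -0.36 at relapse, with adjusted p of 0.309 and 0.188. Under median centring of the arrays the glycolytic list had 2 higher and 0 lower in EDT, and 3 higher and 3 lower at relapse. Of all 9553 genes 2260 were higher and 172 lower in EDT in that setting, and 2149 and 672 at relapse. The list's medians there were -0.09 and -0.27, beside 0.29 and 0.30 over all genes. The counts of this list thus depend on the scaling, while its medians stayed below those of all genes.

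Of the other genes known to be induced by low oxygen, 2 fell in EDT and 8 at relapse. In EDT 1 of 22 tested was higher and 2 lower, against 14.1% higher and 14.6% lower of all genes, with a median of -0.06. At relapse 1 of 22 was higher and 8 lower, with a median of -0.90 beside -0.07 over all genes and 17.5% of all genes called lower. The lowest were Rora (-1.84), Higd1a, a mitochondrial protein that supports cell survival (-1.55), and Narf (-1.49), with adjusted p of 0.00197, 0.00283 and 0.00325 in limma. Without relapse 3 the count was 12 lower and the median -1.27, with Plod1 among those newly called (-1.81, adjusted p = 0.00155). Within slide 6 the count was 1 lower, where 251 of all 9553 genes were lower, and within slide 7 it was 8, where 1274 were. Under median centring it was 5 lower, where 672 of all genes were, with a median of -0.49 beside 0.30 over all genes. Relapse tumours had fewer melanocyte transcripts and more macrophage transcripts than ctrl, as given above, and their part in these falls was not tested.

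P4ha2, a collagen prolyl hydroxylase, went against that list together with Egln3. It was higher in EDT by 0.69 with an adjusted p of 0.0103, and at relapse by 1.0 with an adjusted p of 0.0249 in limma. Mxi1, a MYC antagonist, went the way of Ndrg1, at -0.79 in EDT and -1.19 at relapse, with adjusted p of 0.00284 and 0.0061. Plod1, which hydroxylates lysine in collagen, was lower in EDT, with a change of -0.79 and an adjusted p of 0.00164. With slide as a fixed block none of the 3 was called in EDT: P4ha2 was 0.45 (adjusted p = 0.452), Mxi1 -0.89 (adjusted p = 0.103) and Plod1 -0.63 (adjusted p = 0.167).

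**Figure D5:**
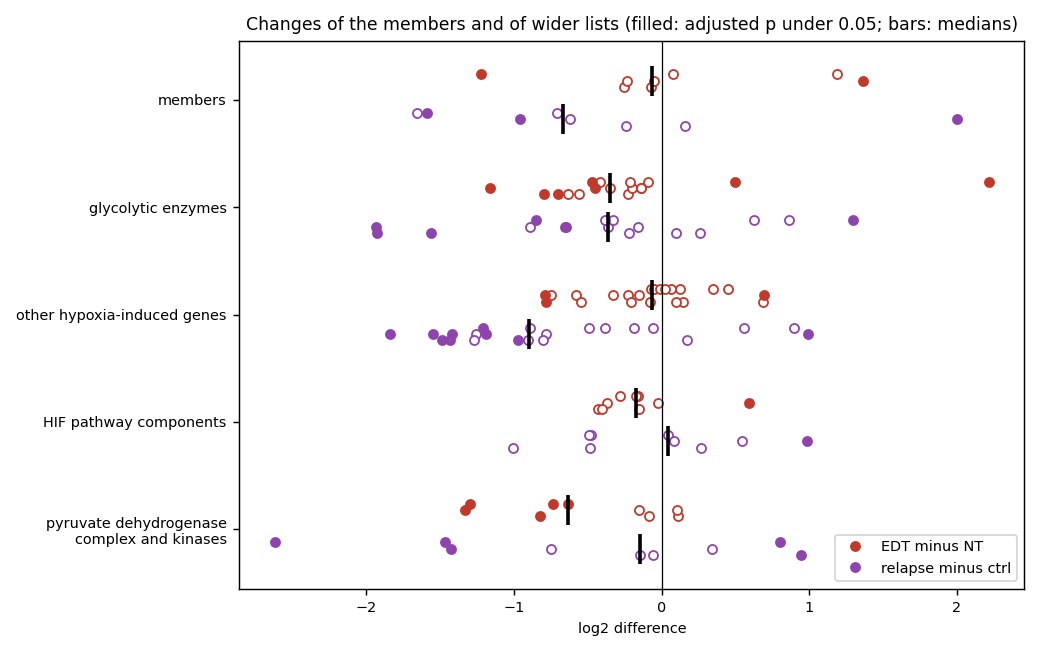
Log2 differences of single genes by list, EDT minus NT (upper row of each list) and relapse minus ctrl (lower row); filled points have an adjusted p under 0.05 and bars are list medians. The other hypoxia-induced genes have their median at -0.06 in EDT and at -0.90 at relapse, and the 8 genes followed here at -0.06 and -0.66.

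The pyruvate dehydrogenase complex and its kinases, which work with Pdk1, held called genes in both comparisons. In EDT 0 of 9 tested were higher and 5 lower, against 14.1% and 14.6% of all genes, with a median of -0.63 beside -0.05 over all genes. The kinase Pdk2 was lower, at means of 5.96 ± 0.45 in EDT and 7.29 ± 0.27 in NT (SD, n = 8 each), a change of -1.33 with an adjusted p of 3.13e-05 in limma. The kinase Pdk4 changed by -1.30 and the phosphatase Pdp2 by -0.82. With slide as a fixed block 3 were lower in EDT, Pdk2, Pdk4 and Pdhb, where 391 of all 9553 genes were lower. Pdp2 was no longer called there (-0.49, adjusted p = 0.204). At relapse 2 of 9 were higher and 3 lower, against 13.3% and 17.5% of all genes, with a median of -0.14 beside -0.07 over all genes. Without relapse 3 the count was 2 higher and 4 lower, with the subunit Dld added (-1.09, adjusted p = 0.00329), named after its values were seen. Pdk4 was lower, at 5.52 ± 0.75 in relapse and 8.14 ± 0.36 in ctrl (SD, n = 5 each), a change of -2.62 with an adjusted p of 0.000381, and relapse was lower than ctrl within slide 6 (-2.18, adjusted p = 0.0183) and slide 7 (-3.29, adjusted p = 0.00544). Dlat, a catalytic subunit of the complex, changed by -1.47 and Pdk2 by -1.43, whereas the kinase Pdk3 was higher by 0.94 and the subunit Pdhb by 0.80. Pdhb was lower in EDT by contrast, at -0.63, and the 2 changes differed by -1.44 with an adjusted p of 0.000415.

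Relatives and receptors of Ndrg1, Vegfa and Adm were taken as 1 list, of which 10 were tested. In EDT, where 14.1% of all genes were higher and 14.6% lower, 1 was higher, the semaphorin and VEGF receptor Nrp1 (0.91, adjusted p = 0.000528 in limma), and 5 were lower, among them Vegfb (-1.18), the placental growth factor Pgf (-1.08) and Ramp2, a partner of the adrenomedullin receptor (-0.78). The last is expressed by endothelium, whose markers were lower for 4 of 10 genes in EDT. With slide as a fixed block, where 589 of all 9553 genes were higher and 391 lower, the list had 1 higher, Nrp1, and 1 lower, Pgf. The calls of Vegfb (-0.87, adjusted p = 0.174) and Ramp2 (-0.69, adjusted p = 0.351) ended there. At relapse, where 13.3% of all genes were higher and 17.5% lower, 0 were higher and 4 lower, with Vegfb (-1.81), Ndrg2 (-1.64) and Ndrg4 (-1.08) the lowest. Without relapse 3 the count was 1 higher, Nrp1 (1.74, adjusted p = 0.00908), and 5 lower, with Pgf added (-2.14, adjusted p = 0.00129). The median of the list was -0.66 in EDT and -0.87 at relapse, beside -0.05 and -0.07 over all genes. Under median centring it had 1 higher and 1 lower in EDT, and 1 higher and 2 lower at relapse. Of all 9553 genes 2260 were higher and 172 lower in EDT there, and 2149 and 672 at relapse. In the same setting the pyruvate dehydrogenase list had 0 higher and 2 lower in EDT, and 2 higher and 3 lower at relapse, and the other hypoxia-induced genes had 3 higher and 0 lower in EDT.

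The scaling of the arrays sets where 0 lies. Quantile normalization held the median change of all genes at -0.05 in EDT and -0.07 at relapse, and centring each array on its median moved these to 0.29 and 0.30. The share of calls that were higher went to 92.9% with median centring and 70.3% with the authors' processed values, beside 49% in EDT, and to 76.2% and 53.9%, beside 43.1%, at relapse. By their brightest probes Egln3 stayed higher and Ndrg1 lower, both called, in each comparison under all of these scalings. The second Ndrg1 probe was not called in EDT under median centring (-0.63, adjusted p = 0.0689 in limma). Vegfa at relapse was no longer called under median centring (-0.71, adjusted p = 0.105), and Adm in EDT was called there (1.60, adjusted p = 0.0179).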

How the data were processed

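RNA from 26 tumours was read on bead arrays. The values used are intensities, the mean bead signal per probe, which the authors deposited without background correction or normalization, as the values show. Detection p-values stand beside them in the deposited tables, and counts of beads with their standard errors in the second, per the file headers. The authors' deposited processed values are on a log2 scale by an unnamed method and served as an alternative. From the first table, the 4 probes with exchanged cells were left out. Each table was corrected and quantile-normalized with nec and normalizeBetweenArrays of limma 3.58.1 (offset 16, negative controls inferred from detection p-values) in R 4.3.3. Of 45260 probes, 16624 were kept, those whose detection p fell below 0.01 in 5 or more tumours of some group. Tests were two-sided lmFit and eBayes of limma with Benjamini-Hochberg adjustment over these probes, at 0.05, and were tested on simulated data. There a change of 1 log2 unit was recovered for 83 of 100 probes in EDT, 36 at relapse and 19 for the difference. For a change of 2 log2 units these were 98, 82 and 84. At relapse and for the difference, an uncalled gene may thus still have changed. A gene is given by its brightest kept probe over the 26 arrays. Of wider lists, at most the 3 highest and 3 lowest called genes are named, besides Hif1a, Epas1, Egln1, Vhl and Gapdh. The genes and lists were chosen with earlier results of these data known. Array slides come from the labels' array names.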

Additional observations from a re-analysis of the deposited data

Results flagged for a closer look

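Adm in relapse 3, at 5.78 log2 units, lay far from the other 4 relapse tumours, the nearest of which had 5.05. This was 1 of 48 groups of a probe checked for such a gap, and chance alone gives about 1 in 20. It is the 1 relapse tumour on which the Adm probe was detected.

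The EDT change minus the relapse change stood out for 3 probes. For Adm it was 2.85 with an adjusted p of 0.0408 in limma. For the dimmer Pgk1 probe, ILMN_2797973, it was -1.50 with an adjusted p of 0.00505, whereas the brighter probe gave -0.02 with an adjusted p of 0.977. For the dimmer Egln3 probe, ILMN_2782101, it was -0.60, given as a description, since that probe was detected in relapse alone and passed the filter through that group.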

How the results depend on the processing

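Beside the values above, 27 settings were tried for EDT minus NT, 22 for relapse minus ctrl and 36 for the difference between the changes. Genes called in EDT numbered 2 to 3 with a tumour left out and 1 within slide 5. At relapse they numbered 2 to 5 with a tumour left out, 1 with no detection filter, 0 within slide 6 and 1 within slide 7. For the difference they numbered 0 to 3 with a tumour left out, 0 without background correction, 0 with no detection filter and 2 with the mean over probes. No detection filter brought 45260 probes into the adjustment. Related pairs in EDT numbered 5 under median centring and 2 with the authors' values, and 1 with any EDT tumour left out; in NT they numbered 20 under median centring and 0 to 8 with a tumour left out. Uncalled differences that changed sign were, in EDT under median centring, Vegfa 0.14, Ldha 0.27, Pgk1 0.076 and Pdk1 0.31; with the authors' values, Ldha 0.016 and Pdk1 0.074; for Slc2a1, -0.57 with slide as a fixed block and within slide 5, -0.030 as a random block and between -0.10 and 0.18 with a tumour left out; and for Pdk1, between -0.18 and 0.039 with a tumour left out. At relapse Ldha was -0.021 with the authors' values and Pgk1 0.22 with the mean over probes. In the difference between the changes, Pgk1 was 0.14 under median centring, 0.18 with the authors' values and between -0.22 and 0.18 with a tumour left out, and Ldha was 0.037 with the authors' values. With the mean over probes Pgk1 was called in EDT (-0.54, adjusted p = 0.0127). The cause of these shifts was not tested. Replicate numbers are shared between groups, but not every same-numbered pair deviated together: r ran from -0.05 to 0.18 over 8 EDT and NT pairs, with 1 over 0.1, and from -0.06 to 0.34 over 5 relapse and ctrl pairs, with 3 over 0.1, each of these 3 the best match of its tumour. The numbers were therefore not taken to pair the tumours. With the replicate block the counts were 2 in EDT, 3 at relapse and 1 for the difference, as without it, and Egln3 and Ndrg1 in EDT had adjusted p of 0.012 and 0.000254. The counts of the wider lists by slide and without relapse 3 were chosen after seeing the data. Probes near background limit what can be said of Bnip3, of the dimmer Egln3 and Pgk1 probes and of Adm at relapse.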
